A study of Mus musculus with 14 samples.

Results

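Tumor size was examined here by comparing 3 pools of small tumors with 3 large tumors from the lungs of SPC/c-Myc transgenic mice. All arrays titled as lung tumor of small or of large size were taken, 6 of the 14 arrays of the series, and every probe set other than the Affymetrix controls was used. The mice carried c-Myc under the human surfactant protein C (SPC) promoter, which is active in the respiratory epithelium, as hemizygotes on the CD2F1-(DBA/2xBalb/C) background, were 9 to 13 months old and developed papillary lung adenocarcinomas (PLAC). A small sample was a pool of 3 to 4 tumors of about 1 mm from a single animal, so that differences between single small tumors were averaged, whereas a large sample was tumor of at least 10 mm from its own animal and is not described as a pool. The remaining arrays, used here for the estimate of the spread and as a reference, held 4 tumors of 4 to 5 mm (middle size) and 4 lungs of non-transgenic mice of the same age. Both tumor groups carry the transgene, and the labels name no treatment.

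c-Myc is a transcription factor that drives entry into the cell cycle, ribosome production and glycolysis, and cells with high c-Myc divide fast and consume much glucose. A nodule that outgrows its blood supply is poorly perfused, and cells short of oxygen stabilize hypoxia inducible factor (HIF), which switches on glucose transporters, glycolytic enzymes and genes such as Ndrg1 and Bnip3. A lung tumor also contains blood vessels, fibroblasts, macrophages and remnants of the alveolar wall, each with its own marker genes.

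The 6 arrays did not fall into 2 tight groups. Across the probe sets tested, log2 signals of the small pools correlated with each other at r = 0.971 to 0.980, and large tumor 1 correlated with the small pools at 0.966 to 0.969. Large tumors 2 and 3 correlated with the small pools at 0.924 to 0.940, and the large tumors correlated with each other at 0.936 to 0.941. Large tumor 1 thus resembled the small pools more closely than it resembled the other large tumors, and results that rest on it are given with and without it. These correlations are across probe sets, which are not independent replicates, and describe likeness only. Over the 5417 probe sets that reached 70 on every one of the 6 arrays, the median SD of the log2 signal was 0.154 among small pools and 0.238 among large tumors, and 70.1% of the probe sets varied more among the large tumors. Pooling of small tumors and size cannot be told apart in this difference.

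**Figure D1:**
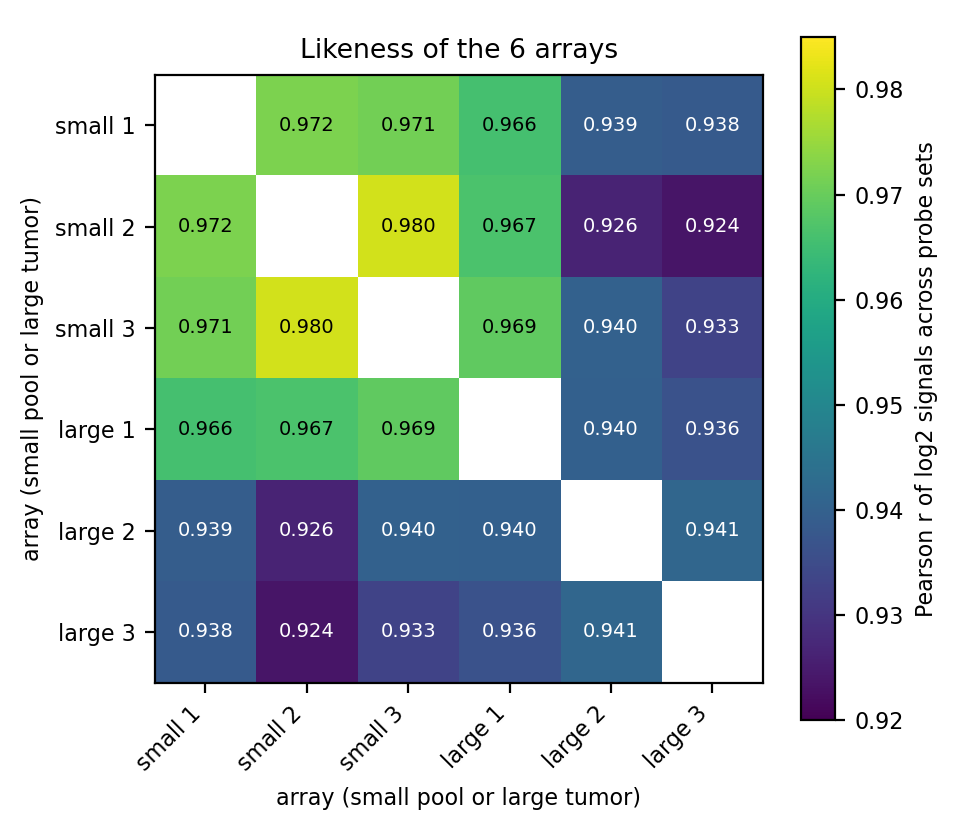
Pearson correlation of log2 signals across the probe sets tested for each pair of the 3 small pools and 3 large tumors (both axes list the 6 arrays, and color and number give r). Large tumor 1 has r of 0.966 to 0.969 with the small pools and 0.936 to 0.940 with the other large tumors.

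Small pool 1 stood apart from the other small pools in some transcripts of neutrophils and of B or plasma cells, whose source was not tested. S100a8, a calcium-binding protein of neutrophils, had a signal of 1740.3, 40.1 and 46.3 in small pools 1 to 3 and of 41.8, 47.2 and 58.2 in large tumors 1 to 3. Ighm, the heavy chain of immunoglobulin M, was at 1721, 368 and 284 in the small pools and at 301, 241 and 543 in the large tumors. Small pool 1 was the highest of the 6 arrays for both genes. Xist, transcribed from the inactive X chromosome of female cells, was at 694 in small pool 1, at 931 in large tumor 2 and at most 16.3 on the other 4 arrays, so that each group held 1 sample with the female pattern.

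Few genes differed between small pools and large tumors beyond the spread between samples. Of 6914 probe sets tested, 0 (0%) were higher and 2 (0.0289%) were lower in large tumors at an adjusted p under 0.05 (limma, Benjamini-Hochberg). At an unadjusted p under 0.05, 224 (3.24%) were higher and 336 (4.86%) lower, and the methods' unpaired test, after the same adjustment, called 0 higher and 1 lower. All large tumors lay above all small pools for 584 probe sets (8.45%) and below them for 656 (9.49%). The median log2 difference (large minus small) over all probe sets was 0, and 257 probe sets were below a signal of 70 on all 6 arrays. Middle tumor 3, with 25.2% of its values near 0, entered the fit and the middle-sized means with those values missing.

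In the same test without large tumor 1, 7 of 6895 probe sets (0.102%) rose and 8 (0.116%) fell at an adjusted p under 0.05. The genes that rose were Slc2a3, a glucose transporter, Ak4, a mitochondrial adenylate kinase, Mocs1, Matk, Rgs5 and Bex4, with 1 probe set without a symbol. Those that fell were Cldn5, Inmt, Pdgfra, Sparcl1, Bcan, Ddah2 and Psmd5, with 1 probe set without a symbol. These genes were named after their values were seen.

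Claudin 5 (Cldn5, probe set 104516_at), the tight junction protein of vascular endothelium, fell. Its signal was 383, 480.3 and 197 in the small pools and 84.3, 24.1 and 102 in the large tumors, without overlap. The log2 difference was -1.97 (standard error 0.29, adjusted p = 0.0489, limma). Middle-sized tumors had a mean of 181 and control lung of 3211, so that its mean was highest in normal lung and lowest in large tumors. The adjusted p passed the threshold in 13 of 28 alternatives and reached 0.379 in the others. In such bulk samples, fewer endothelial cells and less Cldn5 RNA per cell cannot be told apart. The other probe set that fell, 103012_at, has no gene symbol in the annotation, and its signal was 151, 199.6 and 159 in the small pools and 50.1, 71.3 and 30.8 in the large tumors (log2 difference -1.26, standard error 0.20, adjusted p = 0.0489).

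A few genes came close to the threshold. Rgs5, a regulator of G protein signaling known as a marker of pericytes, had 86.3, 80.7 and 94.1 in the small pools and 223, 278 and 257 in the large tumors, which corresponds to a log2 difference of 1.53 (standard error 0.26, adjusted p = 0.075). These groups were far apart and each was tight, and a second probe set of Rgs5 also had all large tumors above all small pools. Bcl2, the anti-apoptotic founder of its family, had 88.8, 125 and 109 in the small pools against 233, 271 and 241 in the large tumors (log2 difference 1.22, adjusted p = 0.082), although its 2 other probe sets overlapped between the groups. Sparcl1, a matricellular protein, had 617, 651 and 564 against 407, 299 and 263 (log2 difference -0.94, adjusted p = 0.082). Mrc1, the mannose receptor of tissue macrophages, had 115, 164 and 149 against 63.9, 60.5 and 74.5 (log2 difference -0.98, adjusted p = 0.082). Sparcl1 was singled out after its values were seen.

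The 10 genes with the largest lower signals in large tumors, all with groups that did not overlap, included genes with high signals in control lung. Besides Cldn5 none passed the adjusted test. Inmt, a methyltransferase abundant in normal lung, had 1153, 1349.6 and 969 in the small pools, 422, 239.9 and 119 in the large tumors and a mean of 6580.2 in control lung (log2 difference -2.32, adjusted p = 0.126). Limch1, an actomyosin regulator, had 449, 655 and 473 against 162, 156 and 61.8 (log2 difference -2.10). Spock2, an extracellular proteoglycan, had 224, 381 and 202 against 101, 76.7 and 62.1 (log2 difference -1.66). These 3 genes had control lung means between 1784 and 6580.2, far above either tumor group. Pbx3, a homeodomain transcription factor, had 266, 333 and 257 against 83.3, 36.8 and 53.7 (log2 difference -1.93). Lsp1, an actin-binding protein of leukocytes, had 203, 286 and 228 against 81.7, 77.7 and 76.2 (log2 difference -1.59). The other 4 were Enpep (glutamyl aminopeptidase, log2 difference -1.59), Slc39a8 (a zinc and manganese transporter, -1.58), Dmtn (the actin-bundling protein dematin, -1.55) and Trp53inp2 (an autophagy regulator, -1.54). A second probe set of Enpep went the other way, with 222, 220 and 270 against 234, 407 and 339 (log2 difference 0.43). For 10 of these 10 genes the mean of the middle-sized tumors lay between the means of the small pools and large tumors, and for 8 the control mean was above that of the small pools.

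The 10 genes with the largest higher signals in large tumors did not pass the adjusted test. Retsat, an enzyme of retinol metabolism, had 402, 199 and 259.8 in the small pools and 552, 1794 and 1104 in the large tumors (log2 difference 1.91, standard error 0.48, adjusted p = 0.241). Bcat2, the mitochondrial aminotransferase of branched-chain amino acids, had 72.0, 109 and 117 against 312, 197 and 733 (log2 difference 1.87). Bst1, an ectoenzyme that cleaves nicotinamide adenine dinucleotide, had 97.5, 65.4 and 56.0 against 153, 228 and 465 (log2 difference 1.69). The large tumors spanned a wide range for these genes and the small pools a narrow one. F3, the tissue factor that starts blood coagulation, had 541, 294 and 338 against 959, 1123 and 1297 (log2 difference 1.57). Col15a1, a collagen of basement membranes, had 183, 137 and 140.0 against 502, 291 and 468 (log2 difference 1.43). The remaining genes were Rgs5, Ndrg1 and Slc2a1, whose values stand in their own paragraphs, Itih2 (a heavy chain of the inter-alpha-trypsin inhibitor, log2 difference 1.42) and Aanat (an acetyltransferase of melatonin synthesis, 1.43). All 10 had a control lung mean below the mean of the large tumors. For 5 of the 10 the middle-sized tumors lay between small and large, and for the other 5 (F3, Col15a1, Itih2, Slc2a1 and Ndrg1) they lay above both.

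**Figure D2:**
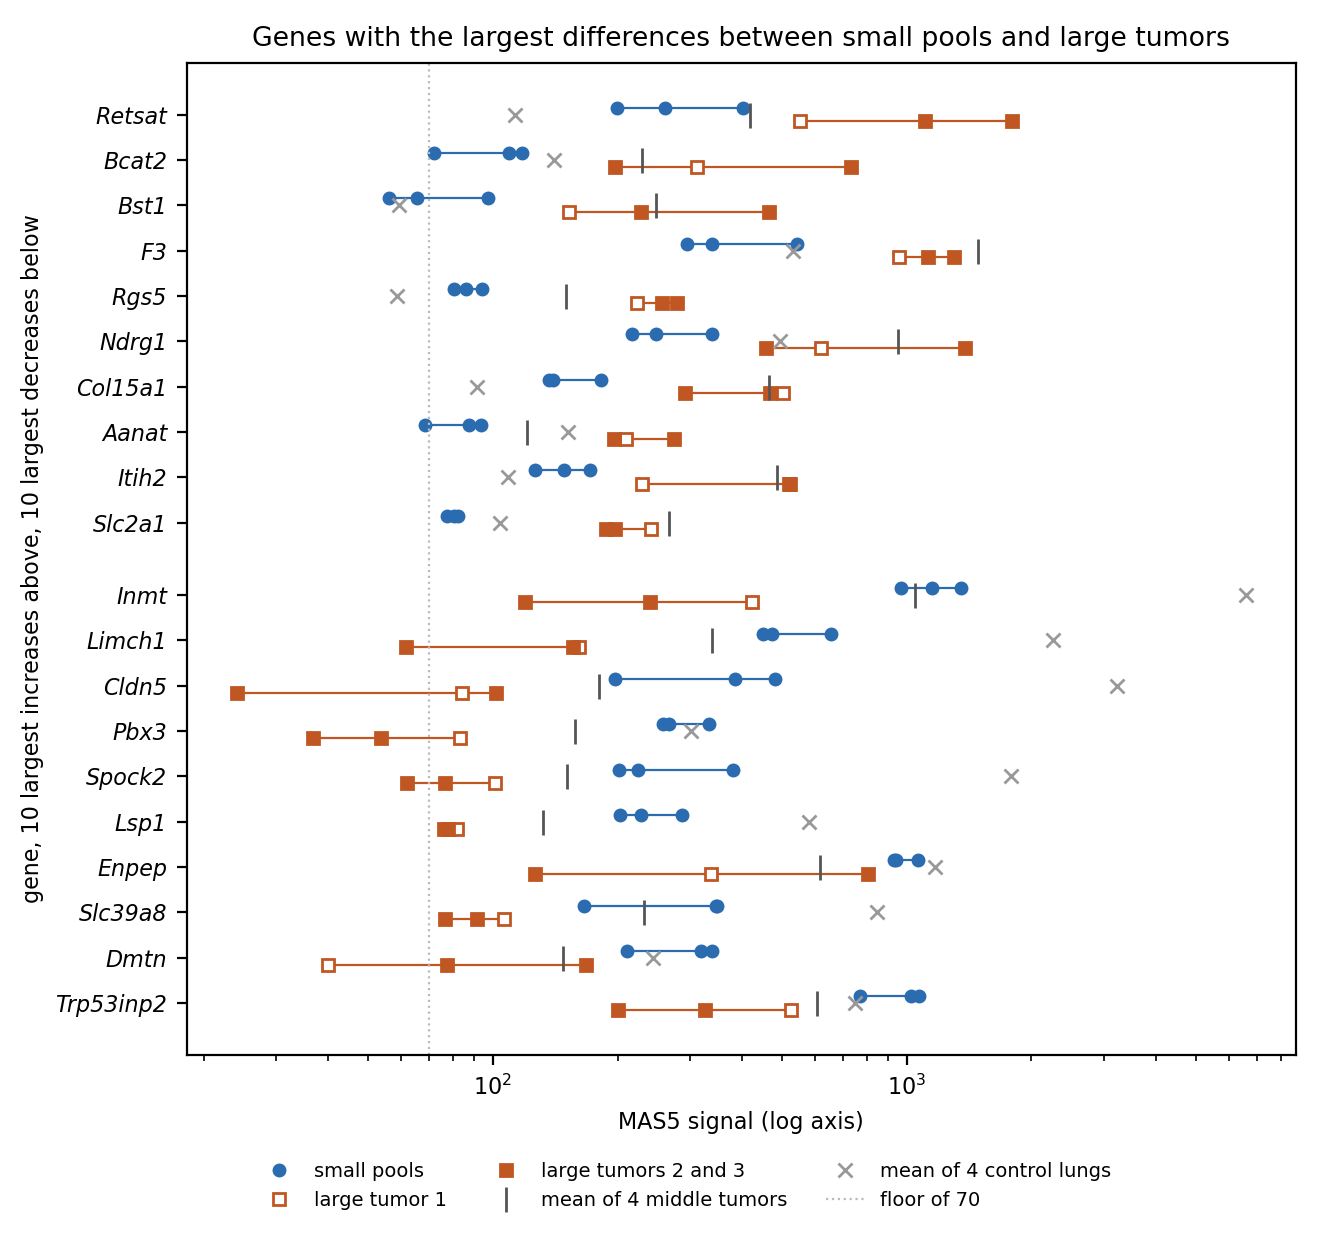
MAS5 signal (log axis) of the 10 genes with the largest higher and the 10 with the largest lower signals in large tumors. Points are single arrays (small pools in blue, large tumors in orange, large tumor 1 open), lines join the lowest and highest array of a group, the tick and the cross are means of 4 middle-sized tumors and 4 control lungs, and the dotted line is the floor of 70. The small pools and large tumors do not overlap for any of these genes, as the choice of genes required, and only Cldn5 passed the adjusted test.

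For probe sets whose small pools and large tumors did not overlap, the middle-sized mean often lay between the other 2 means. Of the 584 probe sets with all large tumors above all small pools, the middle-sized mean lay between the other 2 means for 374 (64%), and of the 656 with all large tumors below, for 427 (65.1%). Over all 6914 probe sets this was 34.8%, a share that includes many with hardly any difference between small and large. The control lung mean was above that of the small pools for 45.1% of the 656 and for 49.5% of all probe sets, against 8 of the 10 leading genes.

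Myc, which the transgene drives, did not differ beyond the spread between samples. Its signal (probe set 104712_at) was 1738, 1391 and 1417 in the small pools and 2165, 2008 and 1055 in the large tumors, with overlap and a log2 difference of 0.14 (95% confidence interval -0.68 to 0.97, adjusted p = 0.972). Of 8 genes of the Myc/Max/Mxd network that were tested, 0 passed the adjusted or the unadjusted test, and their median log2 difference was 0.11, and 0.02 without large tumor 1 and 0.23 without large tumor 3. Max, the obligate partner of c-Myc, had 665, 745 and 612 against 576, 563 and 561 (log2 difference -0.25), and Mxi1, a Max partner that opposes c-Myc, had 591, 576 and 664 against 775, 783 and 686 (log2 difference 0.29). Mycl was at 22.4 in large tumor 1 and at 394 in large tumor 2, and stood apart on that array alone. The median log2 difference was 0.08 over 32 genes of ribosome biogenesis and 0.13 over 18 genes of polyamine, nucleotide and one-carbon synthesis, classes of c-Myc targets, and 0 genes of either passed at an unadjusted p under 0.05.

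Genes of G2/M and mitosis had lower signals in 2 of the 3 large tumors. Of 35 genes tested 0 passed the adjusted test. At an unadjusted p under 0.05, 1 was lower and 0 were higher, against 4.86% and 3.24% of all probe sets. The 1 of 35 is below the share of lower probe sets, while 32 differences were negative and the median log2 difference was -0.65. The mean log2 signal of the 35 genes was 8.17, 8.65 and 8.57 in the small pools and 8.68, 7.71 and 7.12 in the large tumors. Large tumor 1 was thus at the level of the small pools, and 34 of the 35 genes were higher in it than in large tumor 3. Ect2, a guanine nucleotide exchange factor needed for cytokinesis, had 339.9, 557 and 532 in the small pools and 373, 141 and 106 in the large tumors (log2 difference -1.39, standard error 0.53, adjusted p = 0.513). Mki67, a marker of cycling cells, had 393, 798 and 493 against 626, 241 and 33.7 (log2 difference -1.29, adjusted p = 0.655). Cdk1, the kinase that starts mitosis, had 416, 539 and 529.9 against 547, 231 and 90.8 (log2 difference -1.12, adjusted p = 0.647). In each of these 3 genes large tumor 3 had the lowest signal of the 6 arrays, and large tumor 1 lay within the range of the small pools for Ect2 and Mki67 and just above it for Cdk1. Control lung had means of 26.0 for Mki67 and 27.5 for Cdk1, below each of the 6 tumor arrays. These values are of the probe sets tested. A second probe set of Mki67, with signals of 56.3 to 127, overlapped and went the other way (log2 difference 0.42).

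Without large tumor 1, 26 of the 35 genes were lower at an unadjusted p under 0.05, against 7.47% of all 6895 probe sets then tested in that direction (4.93% were higher), but 0 passed the adjusted test and the median log2 difference was -1.15. Without large tumor 3 the median was -0.29 and 0 were lower at an unadjusted p under 0.05, so that the size of the difference rested on which large tumors were included. Across the 14 arrays, the mean log2 level over the 31 of these genes measured on all arrays was 6.73 to 6.83 in control lung and 7.07 to 8.58 in the middle-sized tumors. The middle-sized tumors thus spanned nearly the range of the large ones. DNA replication genes had a median log2 difference of -0.21 over 28 genes (0 at an unadjusted p under 0.05), and of -0.44 without large tumor 1 (13 lower at an unadjusted p under 0.05). Without large tumor 3 the median of the DNA replication genes was -0.01 with 0 lower, so that their difference was not seen without that array. Rrm2, the small subunit of ribonucleotide reductase, had 217, 179 and 185 against 239.8, 88.8 and 53.2, and Mcm5, of the replicative helicase, had 694, 642 and 676 against 673, 405 and 254. Of the 18 regulators of G1/S none passed either test, and their median log2 difference was -0.01.

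Cell cycle and apoptosis genes that the study lists for its tumors were looked up in this contrast. They were chosen by the study on these same arrays against control lung, so that they are no independent evidence. Of 24 tested genes listed as raised in tumors 0 passed the adjusted test, 1 (Ect2) was lower at an unadjusted p under 0.05, and 16 of 24 differences were negative. Of 21 tested genes listed as lowered 0 passed, and 3 were lower at an unadjusted p under 0.05, Anp32a, Lats2 and Tcf21, where 4.86% of all probe sets were lower. The 1 of 24 is near that share. Lats2, a kinase of the Hippo pathway, had 758, 757 and 677 in the small pools and 468, 247 and 529.9 in the large tumors (log2 difference -0.89, adjusted p = 0.45). Cdk4, the G1 kinase, had 1789, 1796 and 1682 against 1899.9, 1868 and 1737 (log2 difference 0.06), and Ccnd1, its cyclin partner, had 1535, 1547 and 1345 against 1215, 1491 and 1178 (log2 difference -0.19). For both G1 genes the groups overlapped.

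Glycolysis and hypoxia genes had higher signals in large tumors more often than lower ones. Of 28 genes tested 0 passed the adjusted test, 8 were higher and 1 was lower at an unadjusted p under 0.05 against 3.24% and 4.86% of all probe sets, and 10 had all large tumors above all small pools. The median log2 difference was 0.31, and 0.24 without large tumor 1, when 6 were higher and 1 lower at an unadjusted p under 0.05. Leaving out each of the 6 arrays in turn gave medians of 0.21 to 0.37 and 5 to 9 higher. The large tumors did not share the difference equally. Relative to each gene's mean in the small pools, the list median was 0.43, 0.34 and 0.06 in large tumors 1 to 3. This list was drawn up with earlier results of these data known.

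Slc2a1, the glucose transporter GLUT1, had a signal of 80.5, 77.6 and 82.3 in the small pools and 241, 187 and 198 in the large tumors (log2 difference 1.37, standard error 0.45, adjusted p = 0.433). With only the 6 arrays fitted, the adjusted p of Slc2a1 was 0.049 (limma). Hk2, the hexokinase that traps glucose in the cell, had 367, 329 and 299 against 589.9, 759 and 917 (log2 difference 1.17, standard error 0.28, adjusted p = 0.212). Ndrg1, induced by hypoxia and differentiation, had 338, 247 and 217 against 620.3, 456 and 1379 (log2 difference 1.48, adjusted p = 0.605). None of these 3 genes overlapped between the groups, and a second probe set of Ndrg1 did not overlap either. Bnip3, a mitophagy receptor and HIF target, had 205, 136 and 193 against 254, 249.8 and 399.9 (log2 difference 0.74). Pdk1, a kinase that inhibits pyruvate dehydrogenase, had 423, 204 and 233 against 556, 1009 and 287 (log2 difference 1.00). Pdk1 overlapped, since large tumor 3 was below small pool 1. Of the glycolytic enzymes proper, Tpi1 (log2 difference 0.59), Pfkl (0.59) and Pkm (0.45) had all large tumors above all small pools, whereas Ldha (0.11), Aldoa (0.16) and Pgk1 (0.27) overlapped.

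Members at the other end were Plin2, Hmox1 and Hif1a. Plin2, which coats lipid droplets, had 1017, 901 and 833 in the small pools and 641, 395 and 361 in the large tumors, all below the small pools (log2 difference -1.02, adjusted p = 0.341). Hif1a, the oxygen-regulated HIF subunit, which is controlled mainly through protein stability, had 2337, 2109.8 and 2155 against 2221, 1770.0 and 1585 (log2 difference -0.26). Vegfa, the vascular growth factor induced by HIF, had 349, 669 and 494 against 1291, 417 and 852 (log2 difference 0.66), with large tumor 2 within the range of the small pools. Adm, also a HIF target, was below 70 on all 6 arrays.

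**Figure D3:**
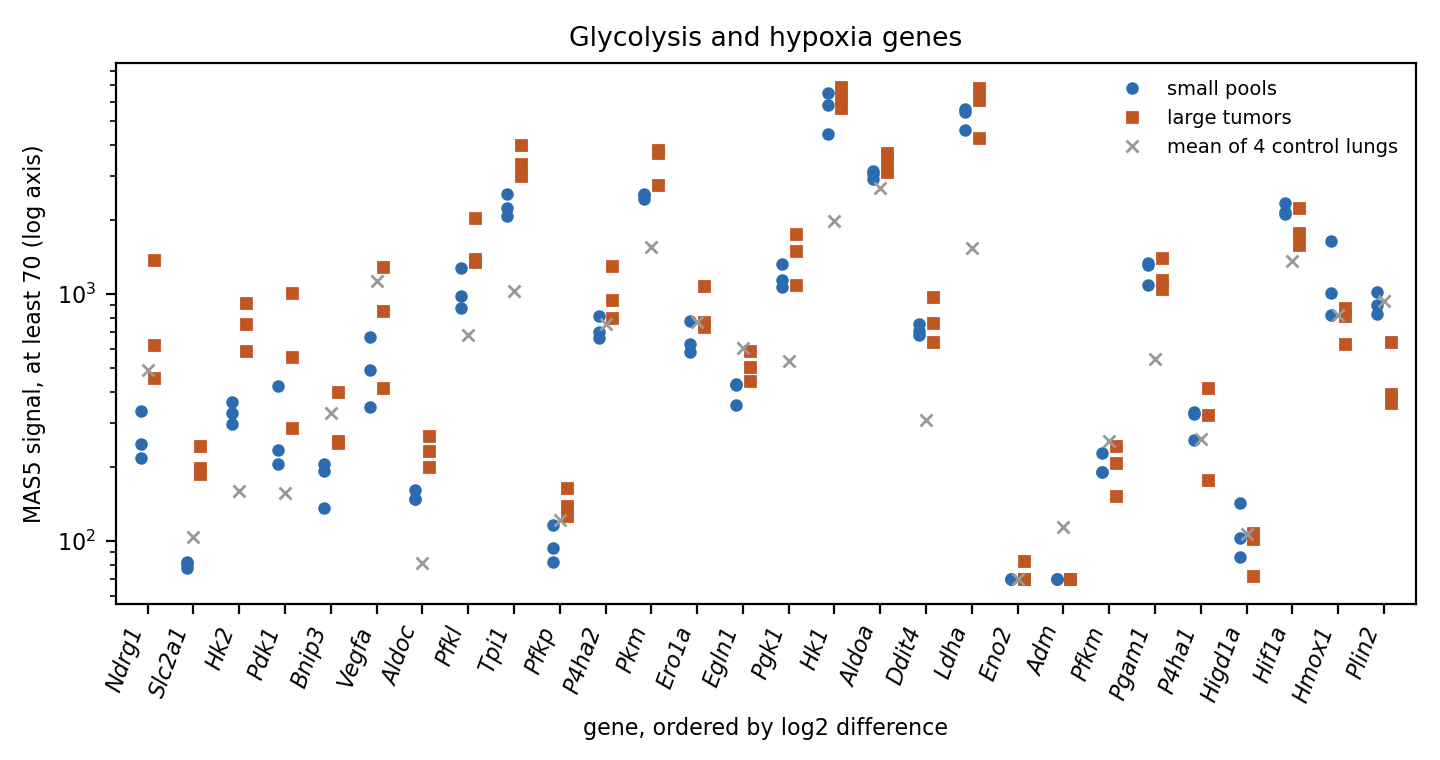
MAS5 signals (log axis, values below 70 drawn at 70) of the 28 glycolysis and hypoxia genes, ordered by log2 difference between large tumors and small pools, for the 3 small pools, the 3 large tumors and the mean of 4 control lungs. Slc2a1, Hk2 and Ndrg1, at the left, have all large tumors above all small pools, and Plin2, at the right end, has all large tumors below.

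The promoters of 3 of these genes are shown because they carry the core letters that HIF reads, ACGTG, on either strand. Capitals mark ACGTG or its reverse complement CACGT, which overlap in CACGTG, the E-box that c-Myc and Max bind. Each is the 250 bases upstream of the RefSeq start on build GRCm38.p6, 5′ to 3′ on the gene's strand, for Slc2a1 at chr4:119108495-119108744 (plus strand), for Hk2 at chr6:82774455-82774704 (minus strand) and for Bnip3 at chr7:138909507-138909756 (minus strand).
Slc2a1: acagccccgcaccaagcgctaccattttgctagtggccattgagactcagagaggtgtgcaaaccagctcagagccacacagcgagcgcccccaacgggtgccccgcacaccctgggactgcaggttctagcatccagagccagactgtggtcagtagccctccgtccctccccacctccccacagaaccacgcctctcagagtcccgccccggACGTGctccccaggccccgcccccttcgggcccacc
Hk2: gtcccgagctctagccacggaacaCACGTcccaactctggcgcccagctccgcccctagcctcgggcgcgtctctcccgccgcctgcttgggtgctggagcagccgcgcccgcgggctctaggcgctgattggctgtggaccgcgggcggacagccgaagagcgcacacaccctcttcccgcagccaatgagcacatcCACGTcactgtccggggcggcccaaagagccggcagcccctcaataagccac
Bnip3: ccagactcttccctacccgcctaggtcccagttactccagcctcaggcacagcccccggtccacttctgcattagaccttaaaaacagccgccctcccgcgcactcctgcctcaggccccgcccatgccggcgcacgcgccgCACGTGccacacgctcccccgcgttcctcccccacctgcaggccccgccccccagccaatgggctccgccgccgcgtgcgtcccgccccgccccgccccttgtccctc
Slc2a1 has 1 match, 36 bases upstream of the start. Hk2 has 2 matches, and the 2 matches of Bnip3 overlap in an E-box. Of the 26 list members with a promoter in the table, 16 (61.5%) held the letters in at least 1 window, against 18.5% of 27025 genes. The list was made largely of known HIF and c-Myc targets, and a match is a description of letters, not of binding. Pdk1, Pfkl and Tpi1 had no match in these windows.

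Proteasome subunits and subunits of the respiratory chain had slightly lower signals in large tumors. Of 30 proteasome genes 0 passed the adjusted test, 3 were lower at an unadjusted p under 0.05 (4.86% of all probe sets), 28 differences were negative, 14 had all large tumors below all small pools (against 9.49% of all probe sets), and the median log2 difference was -0.29. Psmd4, a ubiquitin receptor of the regulatory particle, had 826, 765 and 723 in the small pools and 632, 474 and 615 in the large tumors (log2 difference -0.44, adjusted p = 0.538). Psmb6, a catalytic subunit, had 252, 495 and 483 against 218, 211 and 182 (log2 difference -0.95). Of 40 respiratory chain genes 0 passed, 5 were lower at an unadjusted p under 0.05 (4.86% of all probe sets), 30 differences were negative and the median was -0.17, or -0.11 without small pool 3. Uqcrc2 of complex III had 1117, 1305 and 1131 against 662, 840.5 and 767 (log2 difference -0.65, adjusted p = 0.435), and Cox6c of complex IV had 3475, 3368 and 3562 against 2993, 2948 and 2043 (log2 difference -0.40). Without large tumor 1, 9 of the 30 proteasome genes and 6 of the 40 respiratory chain genes were lower at an unadjusted p under 0.05, against 7.47% of all probe sets. Without large tumor 2 these counts were 0 and 3 (216 of all 6866 probe sets), and without small pool 2 also 0 and 3 (182 of all 6897). Signals are scaled per array, so these are shares of the measured transcripts and not amounts per cell.

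**Figure D4:**
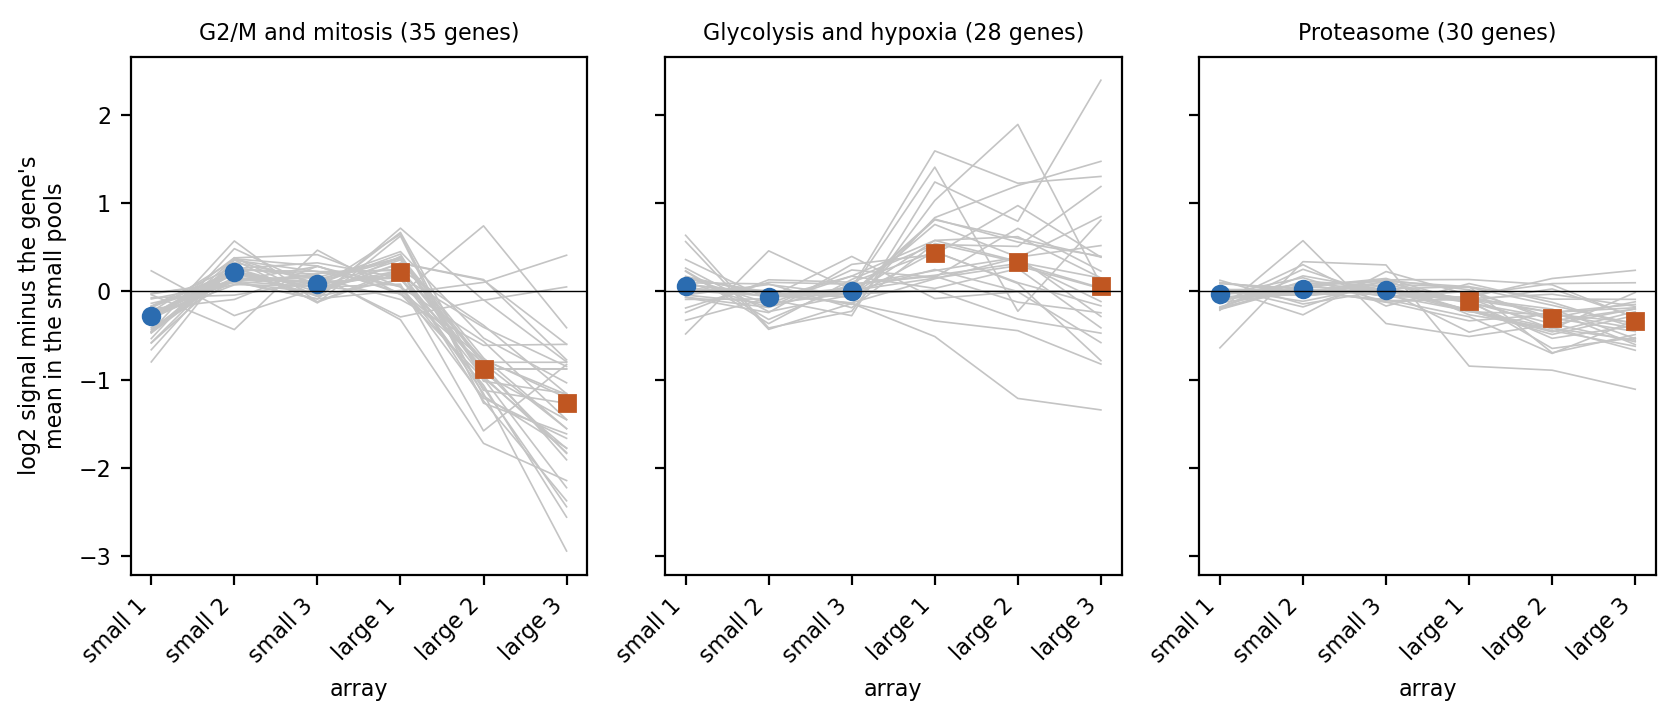
Log2 signal of each gene minus its mean in the small pools (vertical axis) on the 6 arrays (horizontal axis) for 35 G2/M and mitosis, 28 glycolysis and hypoxia and 30 proteasome genes. Gray lines are genes and symbols are medians over genes (circles small pools, squares large tumors). The G2/M median is 0.22 in large tumor 1, -0.88 in large tumor 2 and -1.27 in large tumor 3, and the glycolysis median is 0.43, 0.34 and 0.06.

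Endothelial markers other than Cldn5 did not pass the adjusted test. Of 25 genes tested 1 (Cldn5) passed, 4 were lower and 0 higher at an unadjusted p under 0.05 (4.86% and 3.24% of all probe sets), 19 differences were negative, and the median log2 difference was -0.24. Without small pool 2 the median was -0.13. The summed signal of the 25 genes was 4587 to 6612 in the small pools and 3389 to 4385 in the large tumors, against 32917 to 41758 in control lung. Vwf, the von Willebrand factor, had 277, 299 and 145 in the small pools and 112, 126 and 118 in the large tumors (log2 difference -0.95, standard error 0.27, adjusted p = 0.34). Ramp2, a coreceptor for adrenomedullin, had 244, 416 and 215 against 175, 184 and 151 (log2 difference -0.72). Cdh5, the cadherin that defines endothelium, had 329, 541 and 317 against 338, 198 and 321 (log2 difference -0.47), and Pecam1 had 166, 125 and 174 against 140.0, 154 and 179 (log2 difference 0.03). Both defining markers overlapped between the groups, and 4 of the 25 genes were below 70 on all 6 arrays. The part of endothelial content in the Cldn5 result was not tested.

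Fibroblast and matrix genes went both ways. Of 35 tested 0 passed, 7 were lower and 2 higher at an unadjusted p under 0.05 (4.86% and 3.24% of all probe sets), and the median log2 difference was -0.18. Without small pool 2 the median was -0.07 and 4 were lower (182 of all 6897 probe sets). Their summed signal was 18543 to 20664 in the small pools, 13156 to 20952 in the large tumors and 31454 to 36522 in control lung. Pdgfra, the receptor that marks alveolar fibroblasts, had 474, 509.6 and 522 in the small pools and 252, 146 and 150.0 in the large tumors (log2 difference -1.51, standard error 0.31, adjusted p = 0.119). Its other probe sets overlapped between the groups. Tcf21, a transcription factor of lung fibroblasts, was at 98.2, 110.2 and 97.5 in the small pools and at 46.8, 18.8 and 25.6, below 70 throughout, in the large tumors. Mfap5 of elastic fibers had 271, 213 and 254 against 187, 48.9 and 70.3 (log2 difference -1.33), and Eln, elastin itself, had a log2 difference of -1.09. Col1a1, the main fibrillar collagen, had 504, 1292 and 963 against 1085, 329.6 and 268, with overlap. The genes that were higher at an unadjusted p under 0.05 were Col15a1 and Fbln2, a fibulin of basement membranes and elastic fibers (log2 difference 0.72).

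Macrophage genes had a median log2 difference of -0.35 over 23 genes, of which 0 passed, 5 were lower and 0 higher at an unadjusted p under 0.05 (4.86% and 3.24% of all probe sets). The median was -0.53 without small pool 1. Besides Mrc1 these were Tyrobp, an adaptor of activating receptors, with 285, 349 and 366 against 191, 131 and 194 (log2 difference -0.97), Itgax (-0.60), Ctss (-0.52) and Lpl (-0.90). Their summed signal was 14389 to 16035 in the small pools and 12927 to 16823 in the large tumors, and these ranges overlapped. Of 7 erythroid genes 0 passed, 3 were lower and 1 higher at an unadjusted p under 0.05 (4.86% and 3.24% of all probe sets), and their summed signal was 3520.3 to 7492 in the small pools, 1899 to 2701 in the large tumors and 13135 to 23799 in control lung. The erythroid median log2 difference was -0.63, and -0.30 without small pool 1. Hba-a1, alpha globin, had 4932, 2775 and 2184 against 1094, 1628 and 1088 (log2 difference -1.32, adjusted p = 0.251), and Hbb-b2, beta globin, had 2028, 1068 and 944 against 341, 644 and 388 (log2 difference -1.53, adjusted p = 0.169). Hbb-bh1, an embryonic beta-like globin, went the other way with 78.9, 29.3 and 36.3 against 122, 191 and 82.0 (log2 difference 0.77, adjusted p = 0.328). Globin probe sets can share near-identical gene copies, so single copies are uncertain. Blood left in the sample was not tested as a source of these or of the endothelial and leukocyte differences, and globin signals in control lung were 10007 for Hba-a1 and 5772 for Hbb-b2. Isg15, a ubiquitin-like interferon target, had 75.9, 182 and 235 in the small pools and 39.8, 38.1 and 45.9 in the large tumors (log2 difference -1.08, adjusted p = 0.474).

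Both groups had high signals of alveolar type II markers. Sftpc, the surfactant protein of alveolar type II cells whose promoter drives the transgene, had 10077, 8624 and 10192 in the small pools and 9709, 9093 and 7768 in the large tumors (log2 difference -0.12, adjusted p = 0.94). Of 13 alveolar type II genes 0 passed and 3 were lower at an unadjusted p under 0.05 (4.86% of all probe sets), with a median log2 difference of -0.12 that was 0.03 without large tumor 3 and -0.30 without large tumor 2. These were Hc, complement component 5 (678, 1256 and 1337 against 626, 189.9 and 629.5, log2 difference -1.31), Napsa, an aspartic protease that processes surfactant protein B (-0.69), and Muc1, a membrane mucin (-0.60). The 15 club cell genes had a median log2 difference of -0.42, which was -0.09 without large tumor 1, -0.04 without large tumor 3, and -0.57 without large tumor 2. In the fit without large tumor 2, 5 of the 15 were lower at an unadjusted p under 0.05, against 216 of all 6866 probe sets. Cyp2f2, a cytochrome P450 of club cells, had 3507, 2956 and 3941 in the small pools and 2870.5, 3925 and 401 in the large tumors, with only large tumor 3 far below the others. Of the 27 genes of lipid metabolism 0 passed and 4 were lower at an unadjusted p under 0.05 (4.86% of all probe sets), among them Cpt1a, which carries fatty acids into mitochondria (1315, 1139 and 1128 against 720.4, 527 and 587, log2 difference -0.97, adjusted p = 0.335), and Pltp, the phospholipid transfer protein (-1.22). The lipid median was -0.16, and -0.04 without small pool 3. The keratin Krt18 had 1879, 1675 and 1679 against 2083, 2014 and 2340.2 (log2 difference 0.30), and for Cdh1, E-cadherin, the log2 difference was 0.29.

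Of 24 genes of the apoptosis machinery and the p53 response 0 passed, 3 were higher at an unadjusted p under 0.05 and 0 lower (3.24% and 4.86% of all probe sets), with a median log2 difference of 0.15. Without large tumor 3 the median was 0.06 and 1 was higher (165 of all 6881 probe sets). Besides Bcl2 these were Xiap, the inhibitor of caspases (66.0, 61.7 and 101 against 80.7, 149 and 148, log2 difference 0.62), and Bid, a pro-apoptotic BH3 protein (91.4, 66.5 and 67.1 against 90.6, 119 and 164, 0.66), both with overlap. Gadd45b, a stress-induced growth arrest gene, had 286, 448 and 393 against 159, 189 and 144 (log2 difference -1.18, adjusted p = 0.251). A second probe set of Gadd45b overlapped between the groups (log2 difference -0.41). Dnajb11, an endoplasmic reticulum cochaperone, had 159, 178 and 179 against 99.6, 97.9 and 111 (log2 difference -0.74), while the 21 genes of its list had a median of -0.09. Of 17 heat shock genes 6 had all large tumors below all small pools, against 9.49% of all probe sets. Their median was -0.26 (-0.17 without large tumor 2), and 1 was lower at an unadjusted p under 0.05 (4.86% of all probe sets). Control lung entered the spread behind these p-values. The list's mean log2 level was 10.56 in control lung 4, against 8.81 to 9.32 in the other control lungs. Hspa1a had 256, 273 and 215 against 158, 183 and 185, without overlap, at a standard error of 0.98. How far control lung 4 widened these errors was not tested. Gut and liver secretory genes had a median of 0.34 over 16 genes (0.56 without large tumor 1 and 0.17 without large tumor 3). At an unadjusted p under 0.05, 1 was higher (Tff1, 0.64) and 1 lower (Muc1), against 3.24% and 4.86% of all probe sets. Single genes in a list of 16 are no result about the list. At that threshold there were 0 of 4 ciliated cell genes (median 0.29), 13 smooth muscle genes (0.00) and 9 T and natural killer cell genes (0.00). There were also 0 of 17 B and plasma cell genes (-0.10) and 3 mesothelial genes (-0.05). Of the 14 cardiac muscle genes 11 were below 70 on all 6 arrays. Of these 14 genes 1 (Nppa, 0.74) was higher at an unadjusted p under 0.05, against 3.24% of all probe sets.

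The remaining lists also had 0 members past the adjusted test. Over all probe sets 4.86% were lower and 3.24% higher at an unadjusted p under 0.05, and the counts of 1 lower among 22, 23, 24 and 36 genes are below the share of lower probe sets. At an unadjusted p under 0.05 there were 2 lower of the 15 club cell genes, 1 lower of 8 alveolar type I genes (median log2 difference -0.35), 2 lower of 22 interferon response genes (-0.17), 2 lower of 23 antigen presentation genes (-0.15) and 1 lower of 14 neutrophil and mast cell genes (-0.22). There was 1 lower of 23 epithelial adhesion genes and keratins (-0.05), 1 lower of 36 xenobiotic and antioxidant enzymes (-0.03) and 1 lower of 11 skeletal muscle and adipose genes (0.00). Of 22 cathepsins and lysosomal enzymes 1 was higher and 1 lower (-0.08), and of 24 immediate early genes 1 was higher and 1 lower (0.06). Of 13 metalloproteinase and plasminogen genes (-0.06) and 3 sex-linked transcripts (-0.10) none passed either test.

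**Figure D5:**
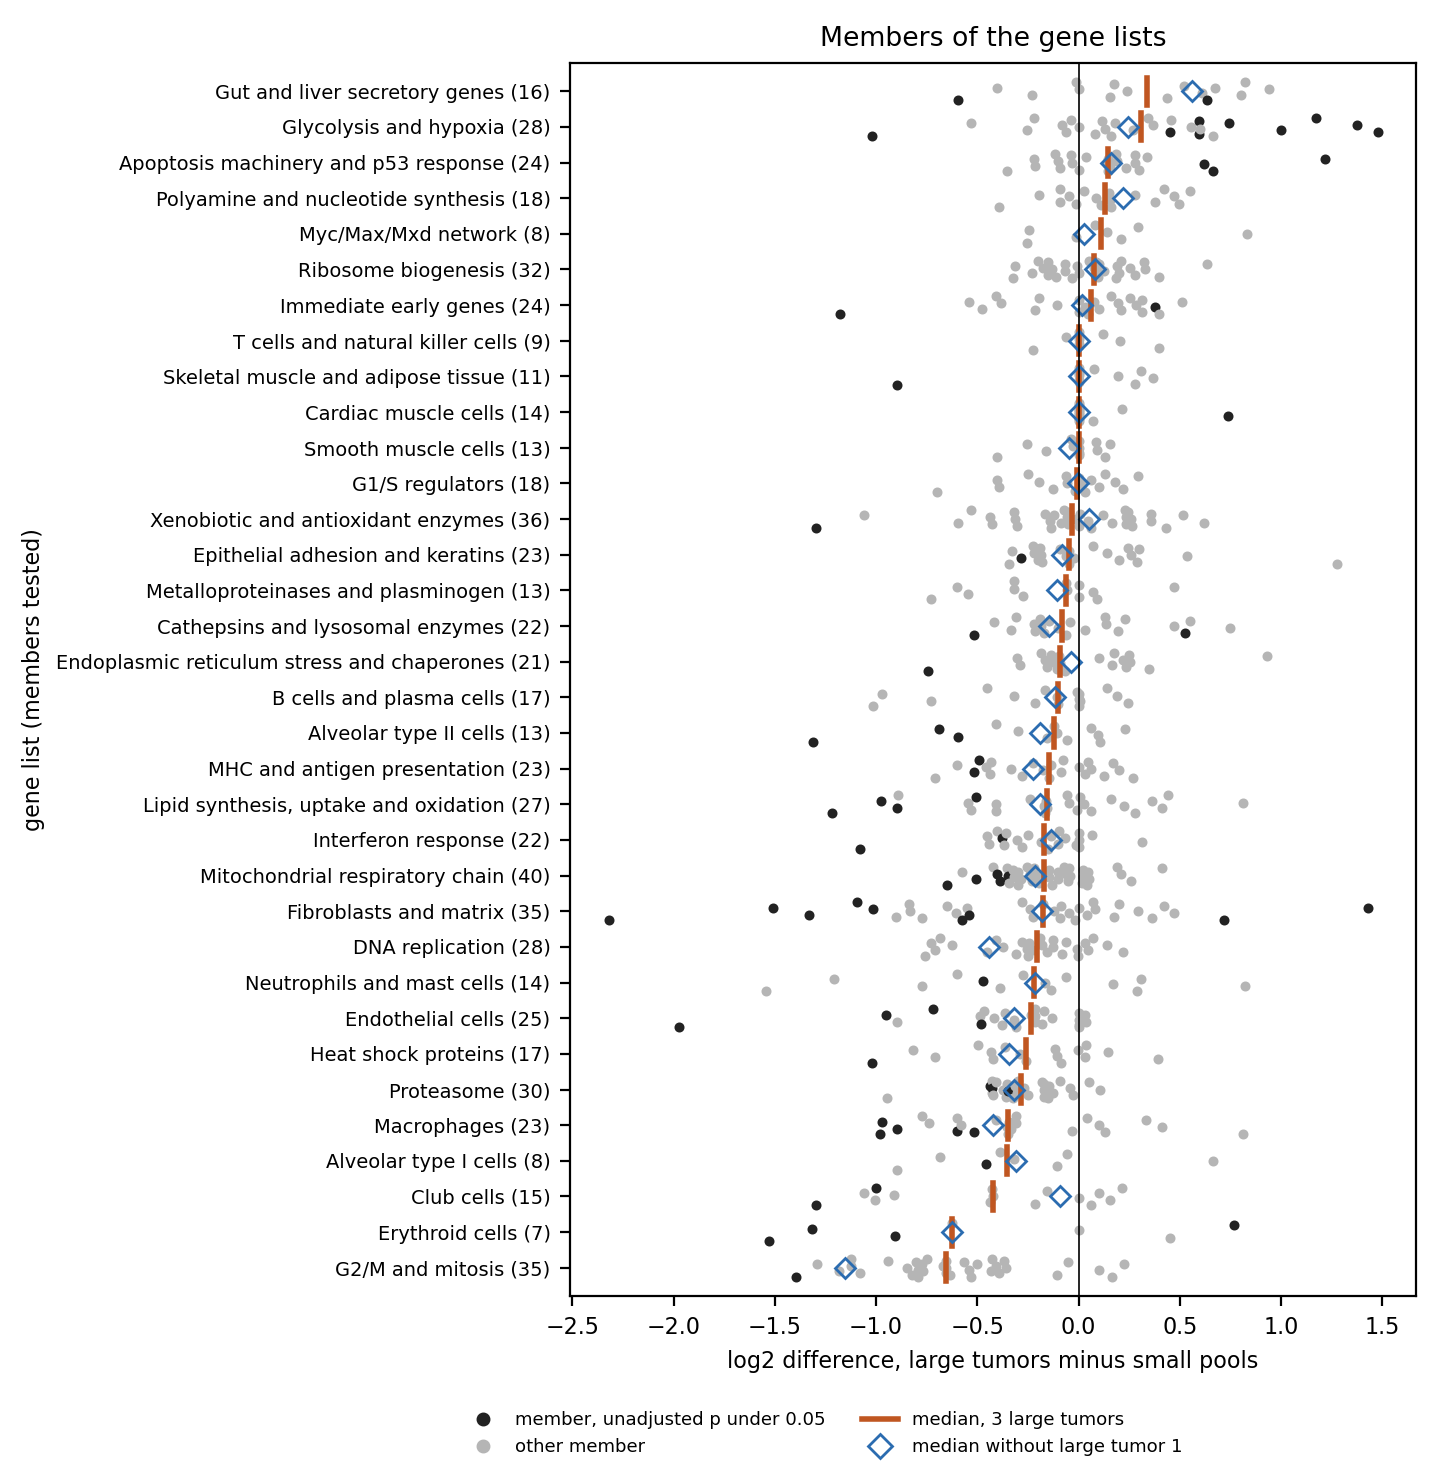
Log2 difference (large tumors minus small pools) of the tested members of each gene list with at least 7 members, ordered by median (number of members in parentheses). Dots are genes (black at an unadjusted p under 0.05), orange bars are medians and open diamonds are medians without large tumor 1. The G2/M median is -0.65 with and -1.15 without large tumor 1, and the glycolysis median is 0.31 with and 0.24 without it.

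Single large tumors stood apart from the other 5 arrays for different genes, named here after their values were seen. At least 2-fold gaps above or below the 5 other arrays were found for 0 and 7 probe sets in large tumor 1, for 21 and 27 in large tumor 2 and for 49 and 50 in large tumor 3, against 27 and 3 in small pool 1 and at most 2 either way in small pools 2 and 3. Aqp4, a water channel of the airway epithelium, was at 687, 989 and 690.3 in the small pools and at 639, 952 and 35.1 in the large tumors. Irx3, a homeodomain transcription factor, was at 1088, 1551 and 1308 in the small pools and at 1734, 518 and 92.9 in the large tumors. Large tumor 3 was low for both genes. It was high for Vcam1, an adhesion molecule, at 306 against 57.1 to 87.2 on the other arrays, and for Gata6, a transcription factor of lung and gut epithelium, with 251, 199 and 792 in the large tumors and 217, 185 and 184 in the small pools. Large tumor 2 was high for Arg1, the arginase of the urea cycle and of some macrophages, at 864 against 79.4 to 220.1, and for Sox2, a transcription factor of airway and squamous cells, at 246 against 11.1 to 49.4. The large samples are not described as pools, so differences among large tumors were not averaged as in the small pools.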

How the data were processed

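Each RNA sample was hybridized to 1 Affymetrix array of the Murine Genome U74v2 type. The authors computed the deposited intensity of each probe set with MAS5, per the labels, scaled to a target signal of 250. Of 12488 probe sets 66 controls were left out. Of the other 12422, 10833 have 1 gene symbol in the platform annotation, 396 several and 1193 none. Near-0 values of middle tumor 3 (25.2%) were treated as missing.

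Here signals were floored at 70, taken to log2, kept at 70 or more on at least 3 arrays and reduced to 1 probe set per symbol, that with the highest mean. limma 3.58.1 (R 4.3.3) was fitted over all 14 arrays by group, with Benjamini-Hochberg adjustment over the 6914 probe sets. Code was tested on simulated data. Arrays give no read depth, so precision is set by how many there are. The tumor samples came from separate animals per the methods.

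Named were the 10 largest differences in each direction with groups that did not overlap, called genes, Myc, the 2 to 4 largest differences of each of 37 gene lists, and the cell cycle and apoptosis genes listed by the study. Some further genes, marked so or given as defining markers, were named with their values known. Members and lists were chosen with earlier results of these data known. Alternatives changed the scaling, floor, filter, probe set choice, spread estimate, pairing, arrays and test.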

Additional observations from a re-analysis of the deposited data

How the results depend on the processing

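Counts of calls were small, and the alternatives moved them. Lower calls numbered 2 as reported, 1 with arrays scaled to 1 median, 0 with all probe sets kept, 0 with near-0 values kept as deposited and 1 with the methods' unpaired test after adjustment. Higher calls numbered 0 as reported, 1 with no filter and 2 with only the 6 arrays fitted. With array weights 11 were higher and 26 lower. The methods' unpaired test at an unadjusted p under 0.05 gave 307 higher and 379 lower, and 4 and 11 with at least 3-fold added. Leaving out 1 array at a time gave 0 to 7 higher and 0 to 8 lower calls: 7 and 8 without large tumor 1, 3 and 7 without middle tumor 4, 2 and 4 without middle tumor 1, 1 and 2 without middle tumor 2, 0 and 2 without middle tumor 3, 0 and 1 without small pool 3, and 0 and 0 without any other array. Counts of probe sets whose groups did not overlap ranged from 759 to 1370 higher and from 811 to 1346 lower when 1 small or large array was left out, since fewer arrays overlap less often. The cause of the other moves was not tested.

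The replicate numbers did not pair the samples, as deviations of same-numbered small and large arrays correlated at -0.149, -0.130 and -0.050. With the replicate number as a block 0 were higher and 0 lower.

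Of 194 named genes 176 were past the threshold in no alternative, and 19 changed sign in at least 1, none of them called and the largest at 0.73 (absolute log2 difference). With 3 samples a group, differences of single large tumors cannot be separated from size, and pooling and size cannot be told apart. Low signals near the floor of 70 understate fold changes.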
